A study of Rattus norvegicus with 10 samples.

Results

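Oligodendrocyte and myelin genes were compared between paraventricular nuclei of dehydrated and control rats. The list named 39 genes by their known roles, with earlier results of these data known, and 37 of them had a probe set (a group of oligonucleotides on the array that reads 1 transcript) annotated with that gene alone, of 14217 genes so represented on the array. Where a gene had several probe sets, the one with the highest mean signal over the arrays stood for it. Of the 37, 35 were bright enough to test. Gpr17 had no probe set annotated with its symbol alone, and Tf had only probe sets shared with Srprb, so both were not analysed here.

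Dehydrated pools came from male Sprague Dawley rats 10 to 12 weeks old after 3 days of dehydration, and control pools from male Sprague Dawley rats of the same ages. Each of the 10 pools held tissue of 5 animals and went to 1 Affymetrix Rat Genome 230 2.0 array, with 5 arrays per group. Pools of a group came from different animals and separate RNA preparations per the labels, and pooling hides the spread between single animals. Sample labels and series title name the paraventricular nucleus, while the design text names the supraoptic nucleus, and the sample labels were followed.

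Oligodendrocytes wrap axons in myelin, a compacted membrane rich in cholesterol, galactolipids and a small set of proteins such as myelin basic protein. They arise from precursor cells that carry the growth factor receptor Pdgfra and the proteoglycan NG2 (Cspg4), under transcription factors such as Olig2, Sox10 and Myrf. In whole tissue, myelin transcripts come from the oligodendrocytes of the nucleus and from any fibre tract taken with it, and fewer cells of a type cannot be told apart from less RNA per cell.

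In the limma fit over 18629 probe sets, 2 of the 35 members fell (Ermn and Evi2a) and 0 rose, at an adjusted p below 0.05. That count was 0 without control replicate 2, without dehydrated replicate 3 or without dehydrated replicate 4, and 3 without control replicate 5. Over all probe sets 0.58% passed by the same rule, 0.183% lower and 0.397% higher, and over all genes taken by 1 probe set each 0.697% passed, 0.21% lower and 0.487% higher. The difference was negative for 32 of the 35, against 51.2% of all probe sets and 50.4% of genes, and the median log2 difference was -0.20, against -0.0048 over all probe sets. An unadjusted p under 0.05 was found for 16 members with a lower value, against 6.01% of probe sets and 5.77% of genes. It was found for 0 members with a higher value, against 6.7% of probe sets and 7.09% of genes, and in either direction for 12.7% of probe sets and 12.9% of genes. Members were read on 1 set of pools and can move together with the amount of myelin in a pool, so the 35 are not separate pieces of evidence. The plot of cumulative shares sets both distributions side by side. The middle 80% of the members ran from -0.38 to -0.01, while that of all probe sets ran from -0.21 to 0.21.

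**Figure D1:**
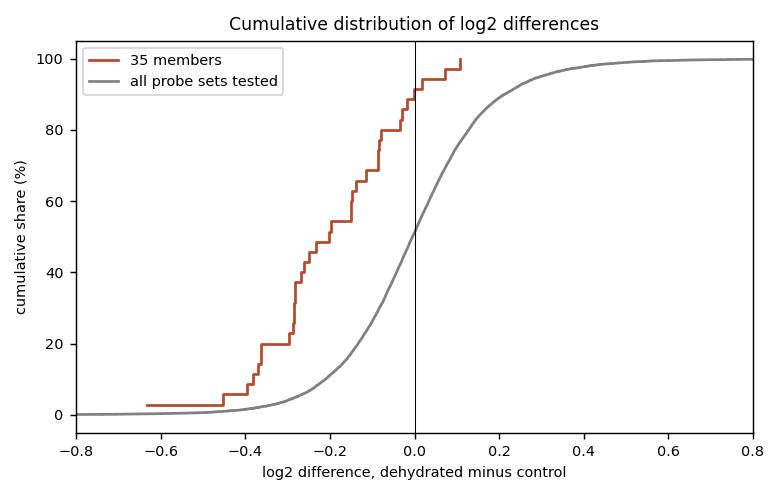
Cumulative share (%) of log2 differences, dehydrated minus control, for the 35 members (red) and for all 18629 probe sets tested (grey), on an axis that ends at 0.8 on either side. The members' curve lies to the left, with a median of -0.20 and 32 of 35 below 0.

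In 6 of the 35 members all 5 dehydrated arrays lay below all 5 control arrays, namely Ermn, Evi2a, Gpr37, Cldn11, Mobp and Gamt. Over all probe sets 1.42% did so, and 1.39% of genes. No member had the opposite separation (0 of 35, against 1.94% of probe sets and 2.23% of genes). The plot of signal by group shows these 6 genes.

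**Figure D2:**
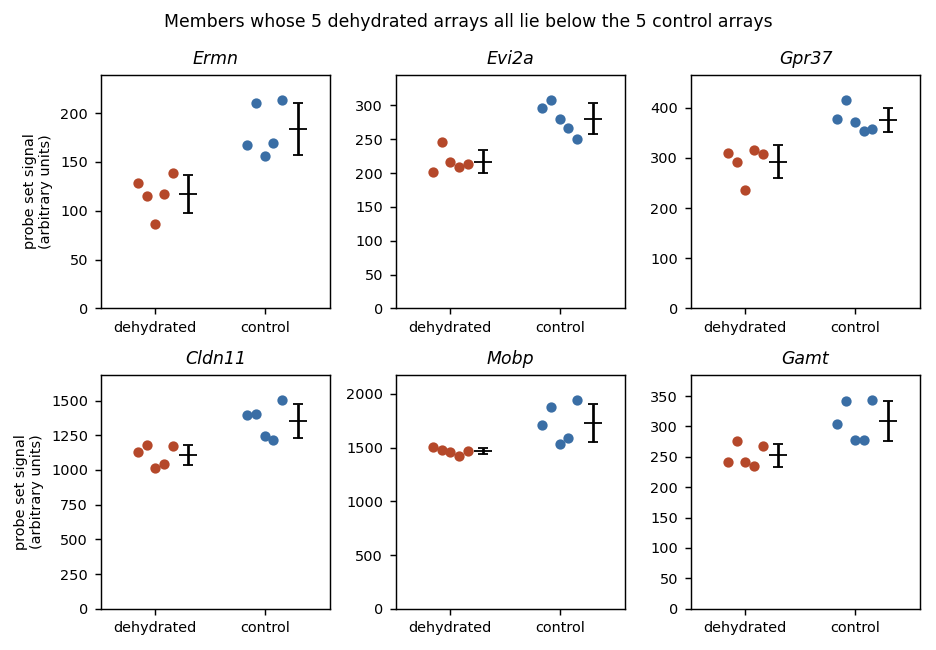
Probe set signal (arbitrary linear units) on each array for the 6 members whose groups did not overlap, dehydrated on the left and control on the right. Points are pools, and the bar beside them is the mean with its SD (n = 5 each); every dehydrated point lies below every control point.

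Genes of the myelin surface and of the oligodendrocyte cytoskeleton held both calls. Of 12 members in that group, 2 fell, 0 rose and 10 did not pass, and 11 were negative, with a median log2 difference of -0.29. Ermn encodes ermin, a cytoskeletal protein of myelinating oligodendrocytes. Its signal was 128.7, 114.9, 86.8, 117.6 and 139.1 on the dehydrated arrays and 167.5, 210.7, 156.2, 169.3 and 213.9 on the control arrays. The groups did not overlap, and dehydrated replicate 3 was lowest. The means were 117 ± 19.6 and 184 ± 26.8 (SD, n = 5 each), so Ermn fell by 36.0%, or by 0.63 ± 0.12 on the log2 scale (adjusted p = 0.0255). Its second tested probe set differed by -0.30 ± 0.14 (adjusted p = 0.397). The Ermn call ended without control replicate 2 (adjusted p = 0.0792), dehydrated replicate 3 (0.0549) or dehydrated replicate 4 (0.0650), and it held without any 1 of the other 7 arrays.

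Evi2a, a transmembrane protein gene that lies within the span of Nf1, had signals of 201.8, 245.2, 215.9, 208.9 and 213.0 in dehydrated pools and 295.5, 308.5, 279.4, 266.2 and 250.9 in control pools. Its groups were close at the edge, where dehydrated replicate 2 came near control replicate 5. Evi2a fell by 22.5% (217 ± 16.7 in dehydrated and 280 ± 22.9 in control pools), a log2 difference of -0.36 ± 0.08 (adjusted p = 0.0441). That call held only without dehydrated replicate 2 (adjusted p = 0.0240) or control replicate 5 (0.0178) among the 10 fits that left out 1 array, and the highest adjusted p was 0.124, without control replicate 2. Omg, the oligodendrocyte myelin glycoprotein gene, also lies within Nf1 in the RefSeq annotation, and it differed by -0.08 (95% interval -0.21 to 0.05). The probe set of Nf1 itself was dim, at 4.9 to 33.4 in dehydrated and 6.6 to 28.2 in control pools, and was not tested.

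Gpr37 encodes an orphan G protein-coupled receptor that in the mouse restrains oligodendrocyte differentiation. It read 310.2, 291.4, 236.3, 316.4 and 307.3 in dehydrated pools, against 377.5, 416.2, 371.9, 354.4 and 357.4 in control pools. All dehydrated values were lower, with replicate 3 well under the rest of its group. The log2 difference was -0.36 ± 0.08 and missed the threshold (adjusted p = 0.0565). Among the 10 fits that left out 1 array, Gpr37 passed only without control replicate 5 (0.0491), and the highest adjusted p was 0.153, without control replicate 2. Of 11 other settings it passed in 3, namely array weights (0.0291), the stricter filter (0.0477) and the mean over probe sets (0.0402).

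The other surface genes lay further from the threshold. Cnp, an enzyme of non-compacted myelin, averaged 1086 ± 93.2 in dehydrated and 1328 ± 172 in control pools (log2 -0.28, adjusted p = 0.162). Mag, the adhesion protein next to the axon, averaged 171 ± 31.0 and 224 ± 38.6 (log2 -0.38, adjusted p = 0.211). Mog and Opalin, proteins of the outer surface and the paranodal loops, differed by -0.29 and -0.30 (adjusted p = 0.251 and 0.257). None of these 4 passed, and in each the groups overlapped, with 5 of 5 dehydrated values below the control median. Bcas1, which marks oligodendrocytes at the start of myelination, differed by -0.14 (adjusted p = 0.422). The deacetylase gene Sirt2 was at -0.09 and gelsolin (Gsn), which severs actin, at -0.02. Plekhb1 was the 1 gene of the group on the positive side, at 0.11 (95% interval -0.07 to 0.28).

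Among genes of the myelin membrane itself, 7 were tested, all 7 were negative, none passed (0 fell and 0 rose) and 3 had an unadjusted p under 0.05. Their median log2 difference was -0.20. Cldn11 encodes the claudin of the tight junctions between myelin layers. Its signals were 1130.7, 1181.0, 1017.4, 1046.5 and 1170.7 in dehydrated pools and 1395.4, 1401.3, 1243.1, 1212.9 and 1505.0 in control pools. The groups were apart by a narrow margin, between dehydrated replicate 2 and control replicate 4, with a log2 difference of -0.28 ± 0.07 (adjusted p = 0.0721). In its second probe set, which was dim, the groups overlapped (log2 -0.24 ± 0.25, adjusted p = 0.732). With the mean over both probe sets the adjusted p of Cldn11 was 0.446. Mobp, a small basic protein of compact myelin, read 1501.6, 1479.0, 1459.6, 1424.1 and 1464.9 in dehydrated and 1711.2, 1876.3, 1532.1, 1593.7 and 1944.7 in control pools. The dehydrated arrays were tightly grouped (SD 28.4) and the control arrays spread over a wider range (SD 177), and the log2 difference was -0.23 ± 0.06 (adjusted p = 0.117). Other probe sets of Mobp differed by 0.02 and -0.15 (adjusted p = 0.971 and 0.700), so the separation was that of 1 probe set of 3.

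Pllp, the gene of plasmolipin, a proteolipid of myelin, gave 131.2, 113.2, 86.6, 129.0 and 107.8 in dehydrated pools, against 155.9, 161.6, 153.0, 127.7 and 182.2 in control pools. Control replicate 4 lay among the dehydrated values. It had the second largest difference of all members, -0.45 ± 0.12 (adjusted p = 0.0952). Mbp averaged 2547 ± 165 in dehydrated and 2758 ± 150 in control pools, a log2 difference of -0.12 with a 95% interval of -0.23 to 0.0032. Its 2 other probe sets differed by -0.60 and -0.28 (adjusted p = 0.233 and 0.340), with 122 ± 14.9 against 202 ± 101 for the first of them. Pmp22, better known from myelin of peripheral nerve, was at -0.20 and the tetraspanin Tspan2 at -0.15, where control replicate 5 was far above the other arrays. Mal, a raft proteolipid, was at -0.0016, with a 95% interval of -0.22 to 0.22. Gjb1, the gap junction gene connexin 32, was below the filter and was not tested, with signals of 2.9 to 5.1 in dehydrated and 3.8 to 16.3 in control pools.

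Over the members with several probe sets, 10 further probe sets of 8 genes were tested. Of these, 9 were negative and 1 positive, and 0 passed (adjusted p from 0.0916, for Ca2, to 0.971). Probe sets of 1 gene share their RNA and are not replicates.

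Promoter windows of RefSeq (GRCr8, from 250 bases before to 50 after the annotated start) were found for 29 members, in 30 windows, and for 4 of the 6 whose groups did not overlap. Of the windows of the separated members, those of Cldn11, Mobp and Gpr37 are printed to show how these letters vary between genes that were lower in the same pools. Capitals mark matches, on either strand, to 5 motifs: ACAAAG and ACAATG, bound by SOX factors, CTGGCAC and CTGGTAC, bound by Myrf, and the E-box CAGCTG, with no overlap between matches in these windows. The Cldn11 window is chr2:114149490-114149789, minus strand, and holds 1 Myrf motif. The Mobp window is chr8:128746982-128747281, plus strand, and holds 8 copies of ACAAAG, all on its reverse strand. The Gpr37 window is chr4:55126371-55126670, minus strand, and holds none of the 5.
Cldn11: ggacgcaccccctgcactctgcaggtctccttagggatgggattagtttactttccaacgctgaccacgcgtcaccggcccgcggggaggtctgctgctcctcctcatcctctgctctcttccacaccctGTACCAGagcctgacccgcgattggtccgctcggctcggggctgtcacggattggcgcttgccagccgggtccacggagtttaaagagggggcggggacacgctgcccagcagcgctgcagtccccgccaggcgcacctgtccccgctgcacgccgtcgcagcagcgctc
Mobp: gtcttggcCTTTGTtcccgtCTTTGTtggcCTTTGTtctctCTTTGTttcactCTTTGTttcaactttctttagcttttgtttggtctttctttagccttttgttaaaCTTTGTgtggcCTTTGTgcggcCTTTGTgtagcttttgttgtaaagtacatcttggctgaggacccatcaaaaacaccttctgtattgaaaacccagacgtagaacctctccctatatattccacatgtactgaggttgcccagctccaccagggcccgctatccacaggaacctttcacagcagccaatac
Gpr37: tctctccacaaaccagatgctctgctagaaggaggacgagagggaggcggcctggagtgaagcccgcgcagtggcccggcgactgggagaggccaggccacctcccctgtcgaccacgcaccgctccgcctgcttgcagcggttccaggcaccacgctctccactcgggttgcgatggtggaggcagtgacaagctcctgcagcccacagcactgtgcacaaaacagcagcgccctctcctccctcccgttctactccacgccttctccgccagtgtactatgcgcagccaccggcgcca

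The window of Gamt also held none of the 5 motifs. Across the members' windows, CTGGCAC occurred in 5 of 30 (16.7%, those of Cnp, Mag, Mal, Olig2 and Opalin), against 4.75% of all 33469 windows. CTGGTAC occurred in 1 (3.33%, against 2.16%). ACAAAG occurred in 5 (16.7%, against 18.8%), ACAATG in 4 (13.3%, against 13.2%) and CAGCTG in 5 (16.7%, against 15.1%). Any of the 5 occurred in 10 (33.3%, against 43.9%). These are matches of letters and not binding sites. The genes with CTGGCAC included both Mag, at -0.38, and Mal, at -0.0016.

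Enzymes of lipid and small-molecule metabolism were the group with the next lowest median, -0.27. Of 8, 7 were negative, none passed (0 fell and 0 rose) and 6 had an unadjusted p under 0.05 with a lower value. Ca2 (current symbol Car2), the carbonic anhydrase II of oligodendrocytes, gave 488.4, 397.1, 415.6, 421.7 and 397.7 in dehydrated and 541.3, 593.6, 499.0, 496.5 and 454.5 in control pools. Only dehydrated replicate 1 reached into the control range. The log2 difference was -0.28 ± 0.08 (adjusted p = 0.128), and its second probe set was at -0.38 ± 0.10 (adjusted p = 0.0916). With the mean over both probe sets Ca2 passed (log2 -0.33, adjusted p = 0.0323), as it did with array weights (0.0413). It passed in 0 of the 10 fits that left out 1 array, where the highest adjusted p was 0.275, without control replicate 2.

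Gamt, which makes creatine from guanidinoacetate, gave 242.0, 276.3, 240.7, 235.2 and 267.4 in dehydrated pools and 303.6, 342.1, 277.0, 278.5 and 343.7 in control pools. The margin between the groups was small, between dehydrated replicate 2 and control replicate 3. Its log2 difference was -0.29 ± 0.08 (adjusted p = 0.135). Enpp2, the gene of autotaxin, which makes lysophosphatidic acid, gave 593.9, 617.7, 543.6, 636.2 and 741.0 in dehydrated and 709.6, 778.5, 779.9, 815.5 and 639.3 in control pools. There dehydrated replicate 5 was among the controls and control replicate 5 among the dehydrated arrays (log2 -0.25 ± 0.08, adjusted p = 0.214). Both enzymes that build the myelin galactolipids were lower without passing. Ugt8, which makes galactosylceramide, averaged 48.4 ± 6.94 in dehydrated and 65.3 ± 14 in control pools (log2 -0.40, adjusted p = 0.256). Gal3st1, which sulphates it, averaged 29.8 ± 6.61 and 39.2 ± 6.04 (log2 -0.37, adjusted p = 0.372). Fa2h, which hydroxylates the fatty acids of the same lipids, lay on the other side at 0.07 (95% interval -0.19 to 0.33). Qdpr, dihydropteridine reductase, was at -0.15 and Aspa, which splits N-acetylaspartate, at -0.08.

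**Figure D3:**
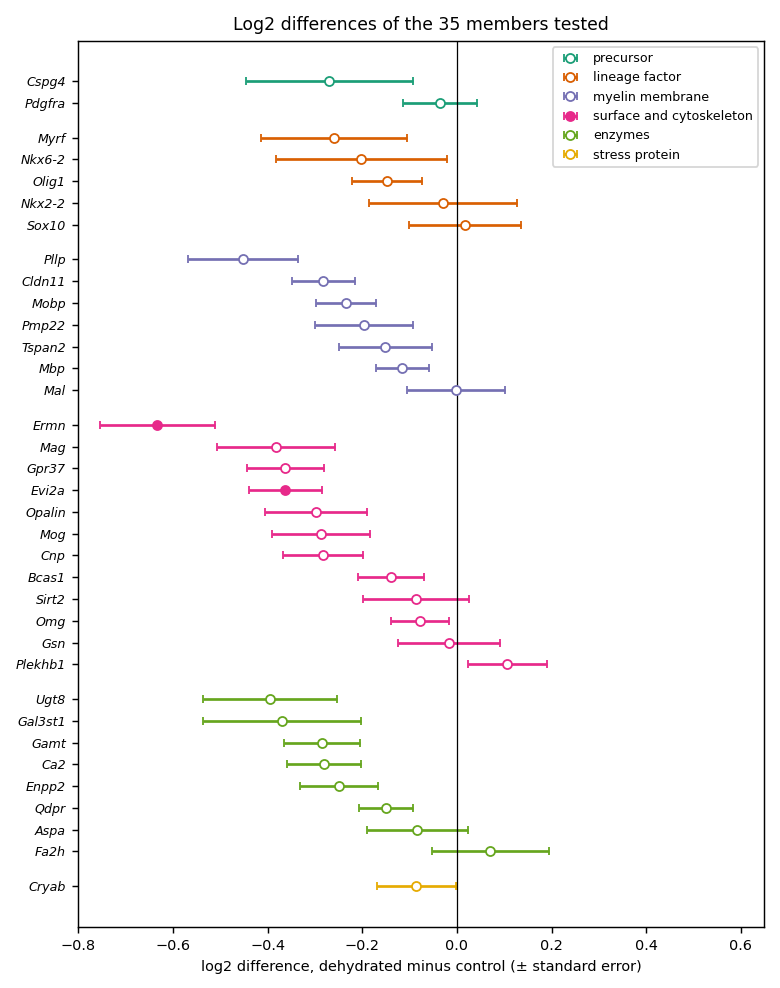
Log2 difference, dehydrated minus control, of each of the 35 members tested, with its standard error, grouped by role. Filled points passed an adjusted p of 0.05 (Ermn and Evi2a), open points did not, and 3 members (Sox10, Fa2h and Plekhb1) lie right of 0.

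Lineage factors had a smaller median difference than the membrane, surface and enzyme groups, while the differences of single genes overlapped between these groups. Of 6, 5 were tested, 4 were negative, none passed (0 of 5, with 0 at an unadjusted p under 0.05), and the median log2 difference was -0.15. Olig1 gave 518.8, 493.0, 501.0, 463.8 and 506.7 in dehydrated and 543.2, 569.3, 528.0, 474.4 and 650.4 in control pools. Control replicate 4 lay inside the dehydrated range (log2 -0.15 ± 0.07, adjusted p = 0.422). Myrf, the factor that switches on myelin genes, gave 156.7, 109.9, 187.9, 114.5 and 96.0 in dehydrated and 177.0, 166.9, 122.0, 147.6 and 169.4 in control pools. Its highest value of all was a dehydrated one, replicate 3, and the log2 difference was -0.26 ± 0.15 (adjusted p = 0.498). Nkx6-2, a homeobox factor of late oligodendrocytes, was dim, with 28.0, 30.7, 22.9, 20.7 and 22 in dehydrated and 19.3, 38.9, 26.4, 32.7 and 30.4 in control pools. Control replicate 1 was lowest of all and the ranges overlapped (log2 -0.20 ± 0.18, adjusted p = 0.679). Nkx2-2 was at -0.03 (95% interval -0.36 to 0.30) and Sox10, which marks the whole lineage, at 0.02 (-0.23 to 0.27). Olig2 was below the filter, at 9.4 to 26.3 in dehydrated and 6.2 to 25 in control pools.

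The precursor genes were both negative and neither passed (0 of 2). Pdgfra gave 262.6, 226.6, 258.3, 210.4 and 227.7 in dehydrated and 242.6, 222.1, 235.9, 252.7 and 259.6 in control pools. The dehydrated arrays held both the highest and the lowest value, and the log2 difference was -0.04 with a 95% interval of -0.20 to 0.13. Cspg4 was dim, at 22.7, 25.4, 29.2, 27.7 and 25.7 in dehydrated and 20.1, 34.1, 30.0, 38.7 and 42.5 in control pools. Control replicate 1 was lowest of all, and the difference of -0.27 ± 0.18 had an adjusted p of 0.549. With these 2 genes the precursor median of -0.15 is the mean of unlike values. Cryab, the small heat shock protein of oligodendrocytes and astrocytes, gave 168.3, 190.7, 190.8, 196.0 and 211.8 in dehydrated and 207.1, 225.3, 182.2, 186.3 and 217.0 in control pools. Those ranges overlapped for most arrays (log2 -0.09 ± 0.08, adjusted p = 0.71).

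Set by stage, the 28 tested members other than lineage factors and precursor genes had a median log2 difference of -0.24, with 26 negative and 2 fallen. They are the membrane, surface and enzyme groups and Cryab. The median was -0.15 in lineage factors and -0.15 in precursor genes, with 0 fallen in either. In the further marker lists given below the order was the other way, with a median of -0.11 over 30 oligodendrocyte genes and -0.17 over 9 precursor genes. An unadjusted p under 0.05 with a lower value was found for 7 of those 30 and 4 of those 9, against 6.01% of probe sets. The difference between stages was not tested.

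Arrays of 1 group differed among themselves in the same genes. The mean deviation of the 35 members from their 10-array means, on the log2 scale, ran from -0.17 on dehydrated replicate 3 to -0.04 on dehydrated replicate 1. In control pools it ran from 0.0025 on replicate 4 to 0.21 on replicate 2 and 0.20 on replicate 5. The highest of the 10 arrays was control replicate 2 for 13 members and control replicate 5 for 15, and the lowest was dehydrated replicate 3 for 11 and dehydrated replicate 5 for 8. How often each array was highest or lowest over all probe sets was not counted. Control replicate 5 stood apart over all probe sets, so these counts cannot be read as particular to the members. In the mean deviation the groups were apart, by less than the distance between control replicates 4 and 2. In 21 of the 35 members all 5 dehydrated values were below the control median. The share of all probe sets with that pattern was not computed, so whether this count is unusual cannot be told.

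**Figure D4:**
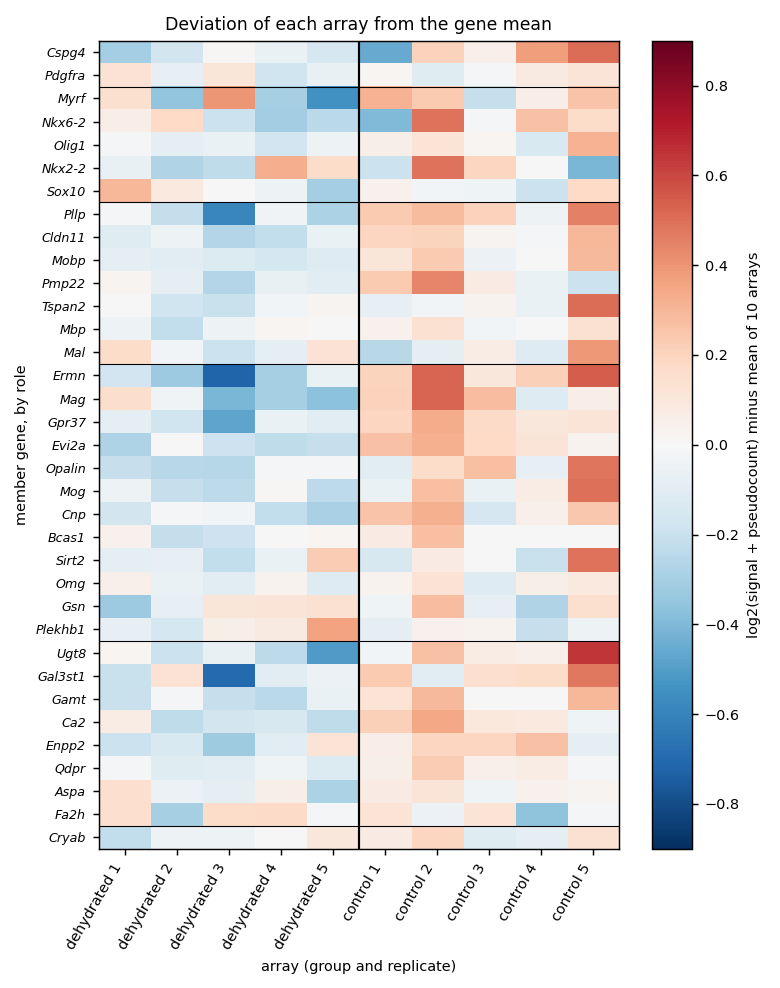
Deviation of log2(signal + pseudocount) from the gene's mean over 10 arrays, for each of the 35 members (rows, by role) on each array (columns, dehydrated left of the line and control right). Control replicates 2 and 5 hold most of the high values (red), and dehydrated replicate 3 the largest number of lowest values (blue).

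Control replicate 5 stood apart from the other arrays over all probe sets, at 37.2 on the first principal component, against -14.4 to 3.69 for the rest. Numbers in the sample titles run in 1 block for the dehydrated arrays and another for the controls, with control replicate 5 outside both. The labels do not say what these numbers count. If they mark when the arrays were run, an effect of the run could not be separated from that of dehydration. Without control replicate 5, the members' median log2 difference was -0.19, and 3 members fell (Ermn, Evi2a and Gpr37). The 3 prime to 5 prime signal ratio of the Gapdh control, a measure of RNA integrity, was 1.58 ± 0.22 in dehydrated and 1.41 ± 0.21 in control pools on the log2 scale (SD, n = 5 each). By an exact two-sided permutation test the p was 0.254, and this design can go down to 0.00794. Control replicate 5 had the lowest ratios of all arrays. They were 1.05 against 1.34 to 1.84 for Gapdh and 2.16 against 2.60 to 3.07 for beta-actin. It was also the highest array for 15 of the 35 members. Control replicate 2, highest for 13 members, had ratios of 1.51 for Gapdh and 2.62 for beta-actin. Dehydrated replicate 3, with the lowest mean deviation of the members, had 1.36 and 2.60. The group difference in the Gapdh ratio was 0.074 without control replicate 5, against 0.165 with that array. The part of RNA quality in the members' differences was not tested.

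Other oligodendrocyte genes, from a list of 44 that shares no gene with the members, were mostly on the same side. Of 30 tested, 23 were negative, 1 fell (Apod) and 0 rose, with a median of -0.11. Apod, the lipocalin apolipoprotein D of mature oligodendrocytes, averaged 249 ± 23.0 in dehydrated and 354 ± 27.5 in control pools (log2 -0.50 ± 0.08, adjusted p = 0.00588). Lgi3 differed by -0.28 (adjusted p = 0.0808) and Trim59, which was dim, by -0.80 (adjusted p = 0.106). All 9 tested genes of a further precursor list were negative, with a median of -0.17 and 0 past the threshold, Sox6 having the smallest p (log2 -0.33, adjusted p = 0.175). Bcan, a member of that list, is also made by astrocytes.

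Markers of other cells moved in both directions in the same pools, and their part in the members' differences was not tested. Of 6 magnocellular genes 4 rose (Caprin2, Vgf, Pdyn and Creb3l1), with a median of 0.71. Their summed signal was 10360 to 13639 in dehydrated and 7889 to 10133 in control pools. Endothelial genes had a median of 0.19, with 10 of 12 positive, 0 called and sums of 1677 to 1840 in dehydrated and 1349 to 1785 in control pools. Astrocyte genes had a median of -0.10, with 9 of 13 negative, 0 called and sums of 16903 to 18902 and 17200 to 19539 in dehydrated and control pools. The lowest p among them was that of Gfap, at -0.38 (adjusted p = 0.0553). Neuronal genes had a median of -0.11, with 11 of 15 negative, 0 called and sums of 13925 to 15779 in dehydrated and 15148 to 15790 in control pools. For microglia the median was -0.07, with 6 of 9 negative, 0 called, and for pericytes and meninges -0.02, with 4 of 8 negative, 0 called. The microglial sums were 2459 to 2905 in dehydrated and 2473 to 2717 in control pools, and those of pericytes and meninges 364 to 478 and 369 to 485. Of the Schwann cell list, Sox2, which astrocytes also express, was the 1 gene bright enough to test (log2 -0.21, adjusted p = 0.309), and the 5 genes with a probe set summed to 515.9 to 642.4 in dehydrated and 595 to 743.3 in control pools. No list had a marker at 0 on every array. The members' own summed signal was 14784 to 15763 in dehydrated and 16097 to 18542 in control pools. Sums of the further oligodendrocyte list were 5941.3 to 6175.5 in dehydrated and 6207.6 to 6556.6 in control pools. Those of the further precursor list were 1587.8 to 1798.4 and 1810.7 to 1938.9. So sums without overlap, lower in dehydrated pools, were found in these lists as well as in the members.

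**Figure D5:**
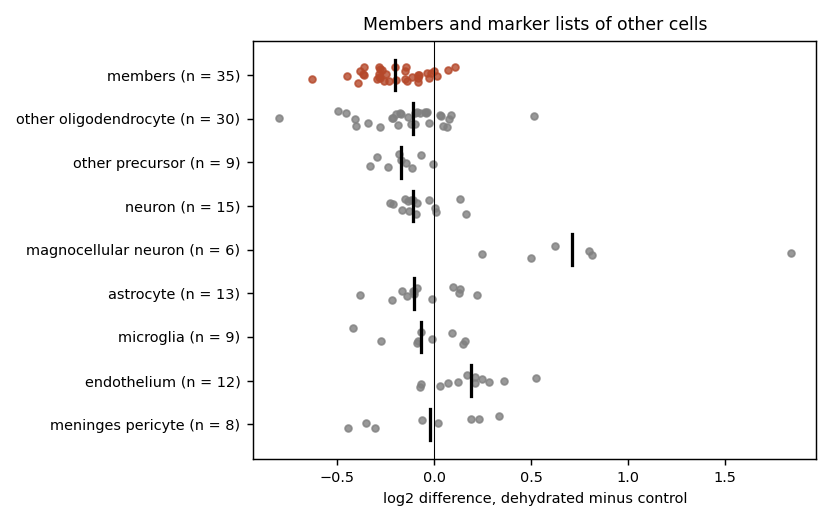
Log2 difference, dehydrated minus control, of each tested gene of the members (red) and of the marker lists (grey), with the list's median as a black bar. The grey lists are the further oligodendrocyte and precursor genes and markers of other cells. The members' median is -0.20, that of magnocellular genes 0.71 and that of endothelial genes 0.19.

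Hypocretin (Hcrt), made by neurons of the lateral hypothalamus beside the nucleus and chosen after its values were seen, had signals of 282.3, 803.1, 235.1, 958.3 and 1027.0 in dehydrated and 689.2, 2508.0, 2098.6, 2026.6 and 609.3 in control pools (log2 -1.28 ± 0.44, adjusted p = 0.233). This was the most negative difference of all probe sets tested. Dehydrated replicate 3 was lowest in Hcrt and in the members' mean deviation, and control replicate 2 was high in both. Control replicate 5 was high in myelin genes and lowest of the controls in Hcrt. Control replicate 4 was lowest of the controls in the members' mean deviation and high in Hcrt. Dehydrated replicate 1 was highest of the dehydrated arrays in the members' mean deviation (-0.04) and low in Hcrt (282.3). The part of neighbouring tissue in the members' differences was not tested.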

How the data were processed

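Total RNA was amplified, labelled and hybridised to 1 array per pool. The authors deposited 1 intensity per probe set on a linear scale. The submitters' processing notes name GCOS 1.2 for it, and which algorithm and background step it ran is not given in the sources used here. Its trimmed mean (2% at each end) was 100.0 on every array, so no further scaling was applied. Of 31099 probe sets, 57 control probe sets were left out. Symbols came from the platform annotation, updated through Entrez identifiers to the GRCr8 gene table for 20758 of 20826 probe sets with 1 symbol.

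Signals were analysed as log2(signal + 3.72), a pseudocount of 0.1 of the median array median, which understates differences of dim probe sets. Probe sets with a mean signal of 24.1 or more (40th percentile) were tested, 18629 in all, with lmFit and eBayes (trend) (limma 3.58.1, R 4.3.3). The two-sided p-values were adjusted by Benjamini and Hochberg's method over these probe sets, with 0.05 as the threshold. The fit was tested on simulated data with independent noise in each probe set. Those data held no array that stood apart and no genes that moved together, so the check does not cover these features of the real arrays. Array number limits the precision. Replicates were numbered in accession order and pair nothing. Values of every array are given for members that passed, for up to 3 of each role with the smallest p, and for members whose groups did not overlap. The members, the lists and the tests were chosen with earlier results of these data known. Alternatives were other scalings, pseudocounts, filters and variance models, other probe sets, an exact permutation test and leaving out arrays.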

Additional observations from a re-analysis of the deposited data

Results flagged for a closer look

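In each group of 5 pools, the highest and the lowest value of every member were set against the gap expected for such a group, on the log2 scale. Of 70 groups (35 members), 4 had a value that stood far from the rest, and chance gives about 1 in 20. Mbp had a signal of 2266.6 in dehydrated replicate 2, where the other dehydrated pools had 2565.0 to 2683.4. Gpr37 had 236.3 in dehydrated replicate 3, where the other dehydrated pools had 291.4 to 316.4. Tspan2 had 571.4 in control replicate 5, where the other controls had 382.2 to 410.4. Bcas1 had 976.7 in control replicate 2, where the other controls had 807.3 to 852.2. Without those arrays the log2 difference was -0.07 for Mbp, -0.29 for Gpr37, -0.04 for Tspan2 and -0.09 for Bcas1.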

How the results depend on the processing

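The median difference of the members was negative under every alternative run, from -0.24 with quantile normalization to -0.15 with the stricter filter, and no member rose under any of them. The number of fallen members was 4 with array weights, 1 with median centring, 1 with quantile normalization, 0 without a filter and 0 without the variance trend, and 0 to 3 with 1 array left out. Changed probe sets, 108 in all with 34 lower and 74 higher, were 201 (74 lower, 127 higher) with array weights, 64 (14 lower) without a filter and 45 (7 lower, 38 higher) without the variance trend, and 46 were higher with median centring. With 1 array left out they were 46 to 148, with 8 to 56 lower and 38 to 92 higher. Without both dehydrated replicate 2 and control replicate 5, a setting chosen after seeing the data, they were 289 (151 lower, 138 higher), 2 members fell, and the surface and cytoskeleton median was -0.19. The precursor median was -0.035 with the stricter filter, which leaves Pdgfra alone. With 1 array left out, the medians were -0.23 to -0.09 for precursors, -0.16 to -0.10 for lineage factors, -0.24 to -0.16 for membrane genes, -0.31 to -0.21 for surface genes, -0.28 to -0.22 for enzymes and -0.12 to -0.04 for Cryab. The Ermn call ended with the mean over probe sets (adjusted p = 0.0854), without a filter (0.0640) and without the variance trend (0.0942). That of Evi2a ended with median centring (0.0607), with quantile normalization (0.0540), without a filter (0.0707) and without the trend (0.115). By the exact permutation test adjusted over all probe sets, Ermn and Evi2a had an adjusted p of 0.236, the lowest that test could give any probe set here, so it could make no call and says nothing about their stability. Signs turned as follows: with array weights Mal was at 0.044 and Gsn at 0.033, with median centring Sox10 at -0.0023, with quantile normalization Mal at 0.0012, without both arrays Pdgfra at 0.0042, Mal at 0.10, Sirt2 at 0.033 and Gsn at 0.035, and another probe set of Mobp at 0.016. With 1 array left out the ranges were -0.065 to 0.096 for Mal, -0.087 to 0.063 for Gsn, -0.14 to 0.090 for Nkx2-2, -0.056 to 0.095 for Sox10, -0.010 to 0.15 for Fa2h, -0.15 to 0.026 for Sirt2 and -0.073 to 0.0059 for Pdgfra, and without both arrays Fa2h was at 0.16. The cause was not tested. The Gapdh ratio difference was 0.074 to 0.22 and that of beta-actin 0.00091 to 0.21 with 1 array left out. No paired analysis was possible because the labels carry no replicate numbers. Without detection calls, signals of dim members such as Cspg4, Nkx6-2 and Gal3st1 hold an unknown share of background.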
